A study of Mus musculus with 15 samples.

Results

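The 8 genes described here are the peroxisome proliferator-activated receptors Ppara, Ppard and Pparg and 5 genes that are known PPAR targets or work beside them in lipid use: Angptl4, Pdk4, Cpt1a, Ucp2 and Klf11. They were chosen by name from the 57132 genes of 3 deposited tables, with earlier results of the same tables known, so the estimates below describe these libraries and are not independent evidence that the genes respond. The data are bulk RNA sequencing of mouse podocytes, the epithelial cells that wrap the filtering capillaries of the kidney. The 15 libraries form 5 groups of 3. One group is wild-type (Col4a3+/+) podocytes given vehicle. The other 4 groups all lack Col4a3, which encodes a collagen IV chain whose loss causes Alport syndrome: Col4a3-/- podocytes given vehicle and tabulated beside the wild type (set 1), Col4a3-/- podocytes given vehicle and tabulated beside the treatments (set 2), Col4a3-/- podocytes given exogenous apolipoprotein M (ApoM), and Col4a3-/- podocytes given CYM50358, which blocks S1PR4, a receptor for the lipid mediator sphingosine-1-phosphate. The ApoM and CYM50358 libraries are labelled 24 h. No time is labelled for the vehicle libraries of set 1, set 2 or the wild type. No dose, number of clones or deleted stretch of Col4a3 is given in the sources used here. Whether a group's libraries represent separate cultures is not given in the labels, and the p-values therefore reflect the spread among libraries, which may be technical.

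PPARs are nuclear receptors that bind fatty acids and their derivatives, pair with a retinoid X receptor (RXR) and sit on DNA at repeats of a hexamer close to AGGTCA. Ppara is best known for driving fatty acid oxidation in liver and kidney tubule, Ppard is expressed in most tissues and drives similar genes, and Pparg is the master regulator of fat cell formation. Among the other 5, Angptl4 encodes a secreted inhibitor of lipoprotein lipase that podocytes make in rat models of nephrotic syndrome, Pdk4 a kinase that shuts pyruvate dehydrogenase and so spares glucose, and Cpt1a the carnitine palmitoyltransferase that sets the rate of fatty acid entry into mitochondria. Ucp2 encodes a carrier of the mitochondrial inner membrane, and Klf11 a zinc finger transcription factor of the Krüppel-like family.

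Values are the authors' signal, a CPM with a further scaling factor, in which 1 read was worth 0.0118 to 0.0221. Depth was 45417221 to 54290968 reads in the 6 libraries of the genotype comparison and 57735687 to 83166742 in the 9 of the treatment comparisons. Col4a3 was 1085 ± 168 (SD, n = 3) in wild-type libraries and 68.3 ± 11.7, 19.8 ± 4.12, 22.5 ± 0.786 and 15.5 ± 1.92 in knockout set 1, knockout set 2, ApoM and CYM50358. S1pr4, the target of CYM50358, had at most 21 reads in any library and 0 reads in every vehicle library of set 2. Of 12 podocyte markers, 8 had a signal of at least 0.5 in every library, Synpo, Nes and Actn4 the most abundant of them, while Tcf21 had no read in any library and Nphs1 averaged at most 0.465 in a group. Of 10 fat cell markers only Lipe reached 0.5 in every library, and Adipoq, Plin1 and Fabp4 averaged at most 0.111. Set 1 and set 2 carry the same genotype and treatment labels but differed in level, with Mki67, a marker of cycling cells, at 28.0 ± 2.19 and 4.47 ± 2.14. In bulk samples a lower level can come from fewer cells of a type or from less RNA per cell, and these cannot be told apart.

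Ppard was the PPAR gene with a clear level in these cells. Ppard (ENSMUSG00000002250.17, mm39 chr17:28451674-28520448) had signals of 52.9, 48.0 and 45.2 in wild-type libraries and 48.4, 49.7 and 47.9 in knockout set 1. In set 2 they were 46.5, 50.0 and 45.7, after ApoM 50.4, 49.8 and 53.7, and after CYM50358 52.1, 53.4 and 57.2. The wild-type and knockout ranges overlapped, as did those of vehicle and ApoM, while the 3 CYM50358 libraries all lay above the 3 vehicle libraries. Fold changes here and below are differences of log2(signal + 1), which understate changes of low genes. Between the genotypes the log2 fold change was 0.0014 (95% interval -0.15 to 0.15, adjusted p = 0.99). After CYM50358 it was 0.19 (SE 0.08, interval 0.03 to 0.35), which did not pass the adjusted threshold of 0.05 (adjusted p = 0.204). After ApoM it was 0.11 (interval -0.04 to 0.26, adjusted p = 0.951).

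Pparg and Ppara were close to the limit of detection. Pparg (ENSMUSG00000000440.13, mm39 chr6:115337912-115467360) had signals of 0.533, 0.575 and 0.648 in wild-type libraries, from 27 to 30 reads, and 0.487, 0.677 and 0.591 in knockout set 1. In set 2 it was 0.216, 0.403 and 1.62, with 101 of its reads in replicate 3, after ApoM 0.607, 0.827 and 0.413, and after CYM50358 0.625, 1.23 and 0.588. The ranges overlapped in every comparison, and no comparison passed the test (adjusted p from 0.788 to 0.999). Ppara (ENSMUSG00000022383.14, mm39 chr15:85619184-85687020) had 11 to 19 reads per library in wild-type cells, 5 to 32 in knockout set 1, 0 to 6 in set 2, 0 to 17 after ApoM and 0 to 18 after CYM50358. Its signal was below 0.5 in all but 1 library, so it did not pass the filter on low values, and no fold change is given for it. Divided by exon length, the mean signal of Ppard in wild-type cells was 32.7 times that of Pparg and 83.8 times that of Ppara.

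**Figure D1:**
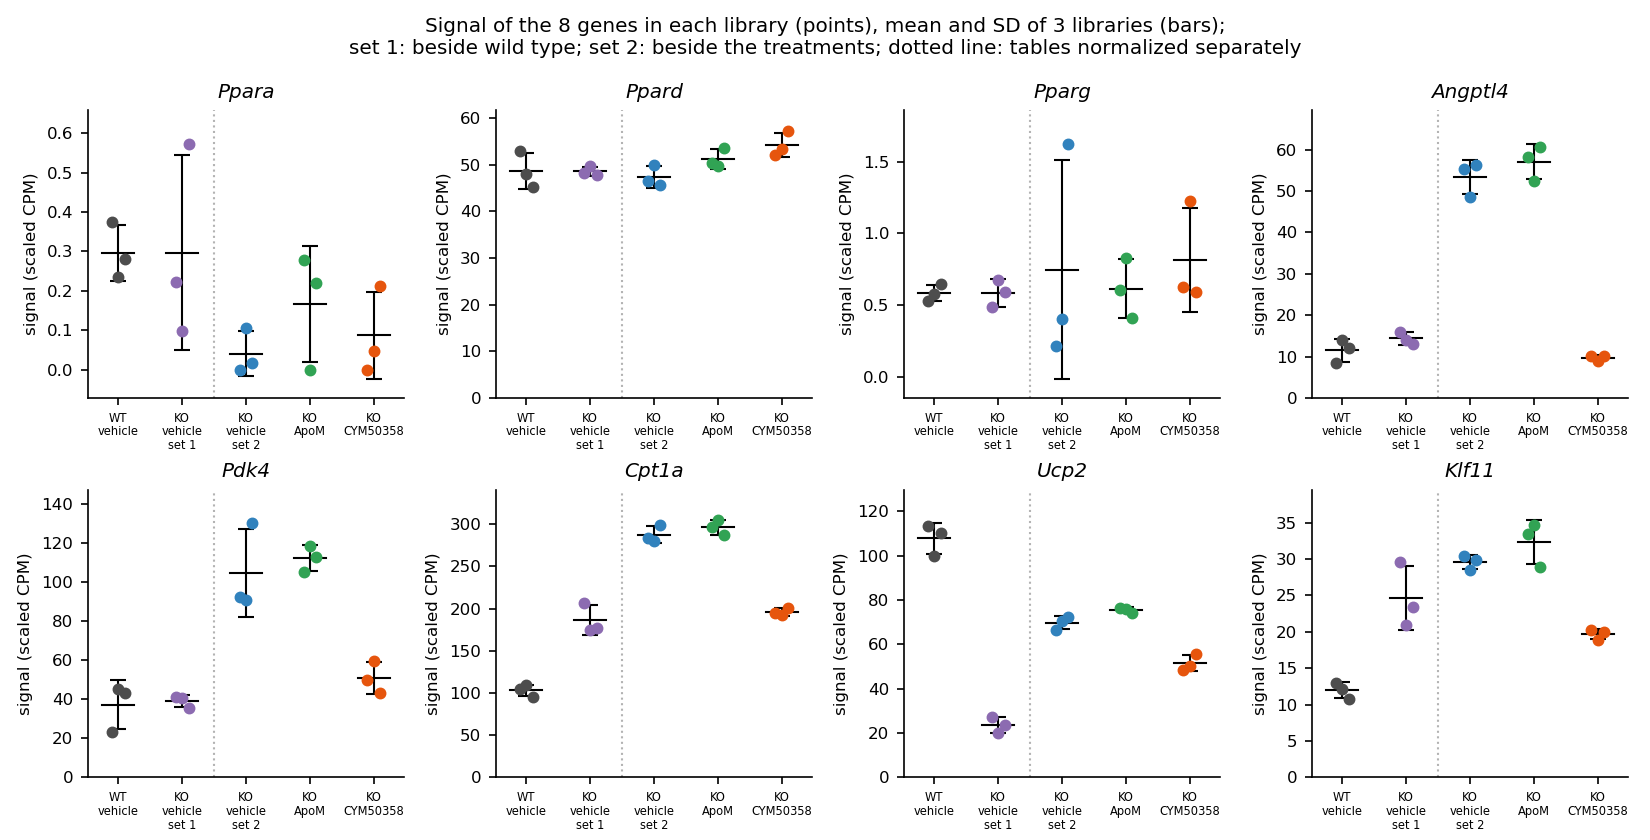
Signal (a scaled CPM, y axis from 0 or just below, a separate scale for each gene) of the 8 genes in each of the 15 libraries, with points for libraries and bars for the mean and SD of 3. Ppard stays between 45.2 and 57.2 throughout, while the 5 other genes with a clear level are lower after CYM50358 than in the vehicle libraries of set 2. The dotted line separates the genotype table from the treatment tables, which may have been normalized separately.

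The comparison of CYM50358 with vehicle asks what an S1PR4 antagonist does to knockout podocytes. All 5 of the lipid genes fell, and Angptl4 fell the most of any gene tested. Of the 8 genes, 7 passed the filter on low values, 5 fell and none rose, while 2.59% of the 13877 genes tested were called (1.34% rose and 1.25% fell). Groups did not overlap for 20.9% of all genes tested. The list was chosen with this comparison known, so nothing is read from that contrast of counts. The median log2 fold change of the 7 genes was -0.55, and that of all genes tested was -0.002.

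Angptl4 (ENSMUSG00000002289.17, mm39 chr17:33992724-34000804) had signals of 55.2, 48.6 and 56.4 with vehicle and 10.1, 8.97 and 10.2 after CYM50358. The treated libraries lay far below every vehicle library and close to each other. The mean went from 53.4 ± 4.19 to 9.78 ± 0.697 (n = 3 each), which is 18.3% of vehicle (log2 fold change -2.34, SE 0.10, adjusted p = 6.15e-11). This was the smallest p of the 13877 genes. Without each of the 6 libraries in turn the log2 fold change ran from -2.40 to -2.28. The authors' deposited table gives a log2 fold change of -2.45 with an SE of 0.10 for the same gene.

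Pdk4 (ENSMUSG00000019577.7, mm39 chr6:5483351-5496309) had signals of 92.4, 90.8 and 130.4 with vehicle and 50.1, 59.7 and 43.1 after CYM50358. Vehicle replicate 3 was the highest library, and every treated library lay below every vehicle library. The mean fell from 104.5 ± 22.4 to 51.0 ± 8.32, or to 48.8% of vehicle (log2 fold change -1.01, SE 0.12, adjusted p = 8.78e-05). The log2 fold change ran from -1.13 to -0.85 when each library was left out.

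Cpt1a (ENSMUSG00000024900.6, mm39 chr19:3372334-3435733) had signals of 283.9, 280.0 and 298.9 with vehicle and 194.9, 192.8 and 201.3 after CYM50358. The ranges did not overlap and were narrow in both groups. The mean fell from 287.6 ± 9.97 to 196.3 ± 4.46, to 68.3% of vehicle (log2 fold change -0.55, SE 0.06, adjusted p = 3.11e-05), the eighth smallest p of all genes tested.

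Klf11 (ENSMUSG00000020653.13, mm39 chr12:24701273-24712788) had signals of 30.4, 28.5 and 29.8 with vehicle and 20.2, 18.9 and 20.0 after CYM50358. All treated libraries lay below all vehicle libraries. The mean fell from 29.6 ± 1.00 to 19.7 ± 0.716, to 66.5% of vehicle (log2 fold change -0.56, SE 0.10, adjusted p = 0.00355). Ucp2 (ENSMUSG00000033685.14, mm39 chr7:100142544-100151227) had signals of 66.7, 70.5 and 72.2 with vehicle and 48.5, 50.2 and 55.6 after CYM50358. Here too the groups did not overlap, and the fall was the smallest of the 5. The mean went from 69.8 ± 2.85 to 51.4 ± 3.67, or 73.7% of vehicle (log2 fold change -0.43, SE 0.08, adjusted p = 0.00429).

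The 5 calls held in every fit that left out 1 library, with adjusted p up to 0.0444 for Ucp2 and 0.0402 for Klf11. When every gene with any signal was tested, with no filter on low values, the fold changes were the same but only Angptl4 stayed below 0.05, with adjusted p = 0.183 for Pdk4, 0.0619 for Cpt1a, 0.162 for Ucp2 and 0.144 for Klf11. The summed podocyte markers were 1645 to 1708 after CYM50358 and 1798 to 1937 with vehicle. The summed mesangial and fibroblast markers, mostly Acta2, were 6241 to 6726 and 6915 to 8236, and mitochondrial reads 3.30% to 3.46% and 2.60% to 3.18%. The part of all these in the falls of the 5 genes was not tested. Summed fat cell markers overlapped between the groups, at 9.71 to 12.5 and 10.4 to 14.0.

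**Figure D2:**
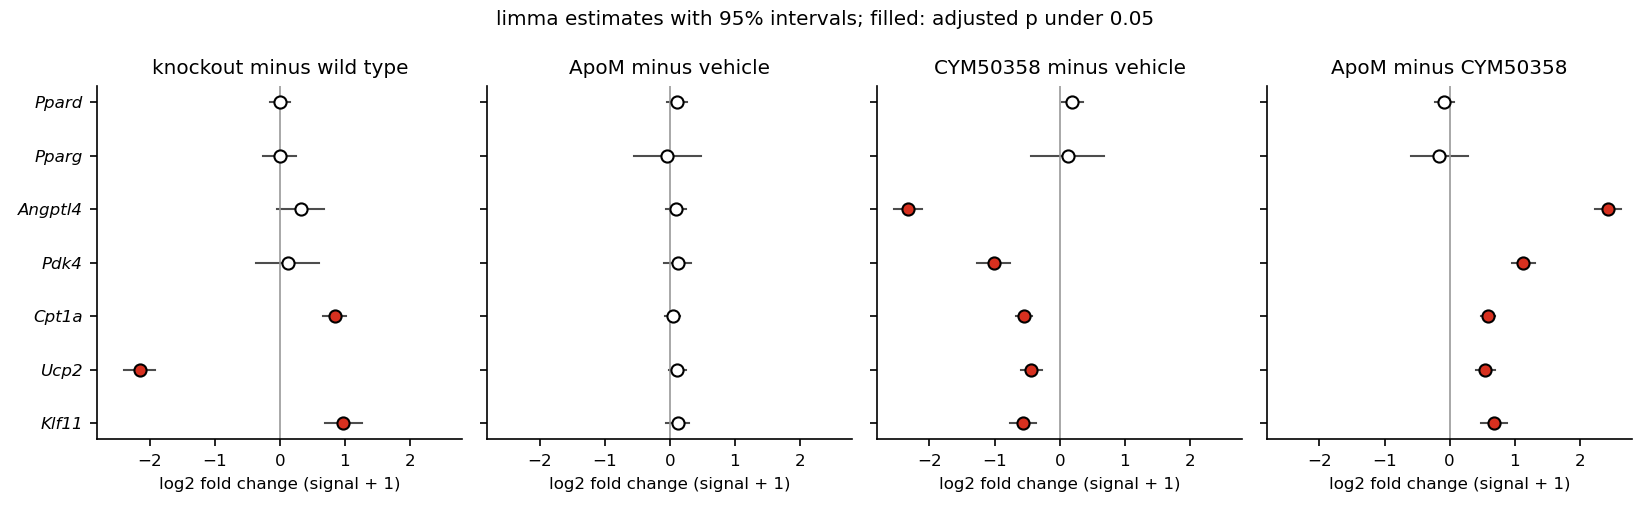
Log2 fold change of signal + 1 for the 7 tested genes in the 4 comparisons, as points with 95% intervals. The 5 lipid genes lie below 0 for CYM50358 minus vehicle and above 0 for ApoM minus CYM50358, while all intervals for ApoM minus vehicle cross 0.

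Promoter sequences of 4 of these genes are shown so that the stretch upstream of a gene that fell can be read directly. Each is the RefSeq window from 250 bases before to 50 after the transcript start, on the gene's strand, in the build GRCm38.p6, which is older than the mm39 of the tables. The windows are chr6:5496229-5496528 on the minus strand for Pdk4, and chr19:3323051-3323350, chr7:100493108-100493407 and chr12:24651121-24651420 on the plus strand for Cpt1a, Ucp2 and Klf11. Capitals mark the core PPAR hexamer AGGTCA or its reverse complement TGACCT.
Pdk4: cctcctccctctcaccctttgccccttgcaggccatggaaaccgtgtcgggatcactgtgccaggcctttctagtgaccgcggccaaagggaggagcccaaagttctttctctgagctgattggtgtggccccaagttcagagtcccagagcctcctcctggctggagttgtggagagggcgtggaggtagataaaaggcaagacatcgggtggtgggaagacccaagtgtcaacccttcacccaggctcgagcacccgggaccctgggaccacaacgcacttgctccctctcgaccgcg
Cpt1a: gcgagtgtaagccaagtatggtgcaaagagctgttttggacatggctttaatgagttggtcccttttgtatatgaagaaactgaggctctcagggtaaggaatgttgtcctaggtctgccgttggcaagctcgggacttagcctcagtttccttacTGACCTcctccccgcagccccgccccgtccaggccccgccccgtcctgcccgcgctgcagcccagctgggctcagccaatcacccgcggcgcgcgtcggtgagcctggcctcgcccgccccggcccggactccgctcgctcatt
Ucp2: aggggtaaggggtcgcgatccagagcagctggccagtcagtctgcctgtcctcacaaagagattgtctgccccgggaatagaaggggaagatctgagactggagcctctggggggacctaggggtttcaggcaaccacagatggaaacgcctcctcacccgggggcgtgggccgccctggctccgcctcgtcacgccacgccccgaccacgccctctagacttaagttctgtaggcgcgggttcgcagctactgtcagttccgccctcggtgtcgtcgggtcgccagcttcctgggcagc
Klf11: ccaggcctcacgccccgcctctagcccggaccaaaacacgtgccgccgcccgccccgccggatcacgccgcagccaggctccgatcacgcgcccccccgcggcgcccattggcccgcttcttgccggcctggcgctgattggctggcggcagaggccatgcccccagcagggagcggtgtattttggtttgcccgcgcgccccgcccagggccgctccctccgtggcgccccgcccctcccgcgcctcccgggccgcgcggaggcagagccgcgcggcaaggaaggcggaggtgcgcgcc
Of these 4 windows only that of Cpt1a holds the hexamer, in reverse, starting at position 157 counted from 1 at the 5′ end. In all, 7 of the 8 genes matched the table, with 9 windows, and 3 of those held AGGTCA or TGACCT. Across all 32851 windows of this length the share with a match on either strand was 16.3%. The hexamer repeated in the same direction with 1 base between the copies, the classic PPAR element, occurred on either strand in 13 windows, or 0.0396%, and in none of the 9. A match is a description of these letters only, and PPAR sites outside the windows were not searched. The windows shown are rich in G and C, at 60.7% for Pdk4, 62.3% for Cpt1a, 64.3% for Ucp2 and 77.7% for Klf11, against a median of 52.7% over all windows.

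The comparison of ApoM with vehicle asks what a carrier of sphingosine-1-phosphate does to the same cells. None of the 8 genes was called: 7 were tested and none had even an unadjusted p under 0.05, and edgeR and DESeq2 also called none. Across all genes 0.0434% of 13839 were called (0.0145% rose and 0.0289% fell), and 5.46% had an unadjusted p under 0.05. After ApoM, Angptl4 had signals of 58.3, 52.4 and 60.7, Pdk4 105.1, 118.5 and 112.9, and Cpt1a 296.7, 304.8 and 287.6. These ranges overlapped those of vehicle. The log2 fold changes were 0.10 for Angptl4 (95% interval -0.06 to 0.25), 0.12 for Pdk4 (-0.09 to 0.32) and 0.04 for Cpt1a (-0.07 to 0.16).

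Klf11 had signals of 33.4, 34.6 and 28.9 after ApoM, overlapping vehicle (log2 fold change 0.12, interval -0.06 to 0.30). Ucp2 had signals of 76.4, 75.9 and 74.2, all above the highest vehicle library, with a log2 fold change of 0.11 (interval -0.02 to 0.24, adjusted p = 0.926). Groups that did not overlap were found for 10.7% of all genes tested in this comparison.

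Set directly against each other, the treatments differed in the 5 lipid genes. The ApoM and CYM50358 libraries share a scale because the vehicle columns are identical in both treatment tables. All 5 were higher after ApoM, while 2.59% of 13878 genes were called (1.22% higher and 1.37% lower after ApoM) and 19.5% had groups that did not overlap. The mean level after ApoM was 5.84 times that after CYM50358 for Angptl4 (log2 fold change 2.43, SE 0.10, adjusted p = 5e-13), again the smallest p of all genes tested. The ratio was 2.20 for Pdk4 (1.13, SE 0.09, adjusted p = 4.58e-08), 1.51 for Cpt1a (0.59, SE 0.05, adjusted p = 6.19e-07), 1.64 for Klf11 (0.68, SE 0.10, adjusted p = 0.000163) and 1.47 for Ucp2 (0.55, SE 0.07, adjusted p = 6.22e-05). Ppard did not pass (-0.08, interval -0.23 to 0.07, adjusted p = 0.663). With no filter on low values the calls of Pdk4, Ucp2 and Klf11 were lost (adjusted p = 0.0804, 0.0804 and 0.0805). The summed podocyte markers were 1761 to 1944 after ApoM and 1645 to 1708 after CYM50358, the fat cell markers 14.2 to 15.4 and 9.71 to 12.5, mostly from Lipe, and their part in the differences was not tested.

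Knockout podocytes of set 1 were compared with wild-type podocytes to see what differs between the untreated genotypes. Cpt1a and Klf11 were higher in knockout cells, Ucp2 was much lower, and Angptl4, Pdk4, Ppard and Pparg did not pass the test. Of the 7 genes tested, 3 were called, and 44.7% of 14313 genes were called (22.6% rose and 22% fell), so a share of this size is near the background. Groups did not overlap for 55.8% of all genes. Cpt1a had signals of 104.7, 108.9 and 95.6 in wild-type libraries and 206.7, 175.0 and 176.6 in knockout set 1. Every knockout library was above every wild-type library. The mean rose from 103.1 ± 6.83 to 186.1 ± 17.9, or 1.81-fold (log2 fold change 0.84, SE 0.08, adjusted p = 3.62e-05). On chromosome 19, which holds Cpt1a, the median log2 fold change of the 504 genes tested was 0.17, against 0.003 over all genes tested.

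Klf11 had signals of 13.0, 12.2 and 10.8 in wild-type libraries and 29.6, 21.0 and 23.5 in knockout cells. The ranges did not overlap, and knockout replicate 1 was the highest. The mean rose 2.06-fold from 12.0 ± 1.12 to 24.7 ± 4.43 (log2 fold change 0.98, SE 0.13, adjusted p = 0.000289). Ucp2 had signals of 113.4, 99.98 and 110.1 in wild-type libraries and 27.3, 19.8 and 23.7 in knockout cells. This was the widest gap of the 8 genes between the genotypes. The mean fell from 107.8 ± 6.99 to 23.6 ± 3.75, to 21.9% of wild type (log2 fold change -2.15, SE 0.10, adjusted p = 6.57e-07).

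Angptl4 had signals of 8.58, 14.0 and 12.0 in wild-type libraries and 16.1, 14.1 and 13.1 in knockout cells, which overlapped (log2 fold change 0.32, SE 0.16, adjusted p = 0.131). Without wild-type replicate 2 the difference passed the threshold (0.46, adjusted p = 0.0408), and without wild-type replicate 1 it was 0.14 (adjusted p = 0.343). Pdk4 had signals of 23.1, 45.5 and 43.3 in wild-type libraries and 41.1, 40.5 and 35.3 in knockout cells (log2 fold change 0.12, SE 0.21, adjusted p = 0.681). Without wild-type replicate 1 the log2 fold change of Pdk4 was -0.19 (adjusted p = 0.0703). Wild-type replicate 1 was the lowest library for both genes and also had the lowest share of mitochondrial reads, 0.882% against 1.30% to 2.02% in the knockout libraries. Summed podocyte markers were 2045 to 2349 in wild-type and 1643 to 1789 in knockout cells, summed endothelial markers, mostly Ehd3, 51.8 to 61.6 and 38.8 to 44.3, and Mki67 37.1 to 65.7 and 25.7 to 30.1. The median log2 fold change between the genotypes was -0.17 on chromosome 6, which holds Pdk4 and Pparg. It was 0.009 on chromosome 17 (Angptl4 and Ppard), -0.002 on chromosome 7 (Ucp2) and -0.04 on chromosome 12 (Klf11). The part of all these, and of the chromosome 19 median, in the genotype differences was not tested.

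The knockout baseline itself depended on the set of libraries, which matters for Angptl4 above all. Angptl4 averaged 14.4 ± 1.52 in set 1 and 53.4 ± 4.19 in set 2, a ratio of 3.71, although both are Col4a3-/- cells with vehicle. After CYM50358 it stood at 9.78 ± 0.697, below the level of set 1, on scales that may have been normalized separately. The ratio of set 2 to set 1 was 2.68 for Pdk4, 2.96 for Ucp2, 1.55 for Cpt1a, 1.20 for Klf11 and 0.974 for Ppard. From CPM of the recovered reads, without the authors' further scaling, the ratios were 3.64 for Angptl4, 2.63 for Pdk4, 2.90 for Ucp2, 1.52 for Cpt1a, 1.18 for Klf11 and 0.955 for Ppard. For Ucp2 the difference between sets changes the size of the contrast with wild type, since wild-type cells were at 107.8 ± 6.99, set 1 at 23.6 ± 3.75 and set 2 at 69.8 ± 2.85. For Cpt1a and Klf11 both sets were above wild type. No test was made across the sets. Mitochondrial reads were 1.30% to 2.02% in set 1 and 2.60% to 3.18% in set 2, and Mki67 differed as given above. The summed mesangial and fibroblast markers, mostly Acta2, overlapped between set 1 and set 2, at 6829 to 7910 and 6915 to 8236. Within that list Col1a1 averaged 472.9 and 48.6 and Pdgfrb 115.0 and 99.0. Col1a2, Pdgfra, Itga8 and Cspg4 were also lower in set 2, all from means below 1 in set 1. Only Acta2 (6710 and 7603) and Dcn (2.33 and 2.49) were higher in set 2. These and the different libraries and tables cannot be told apart in this design.

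**Figure D3:**
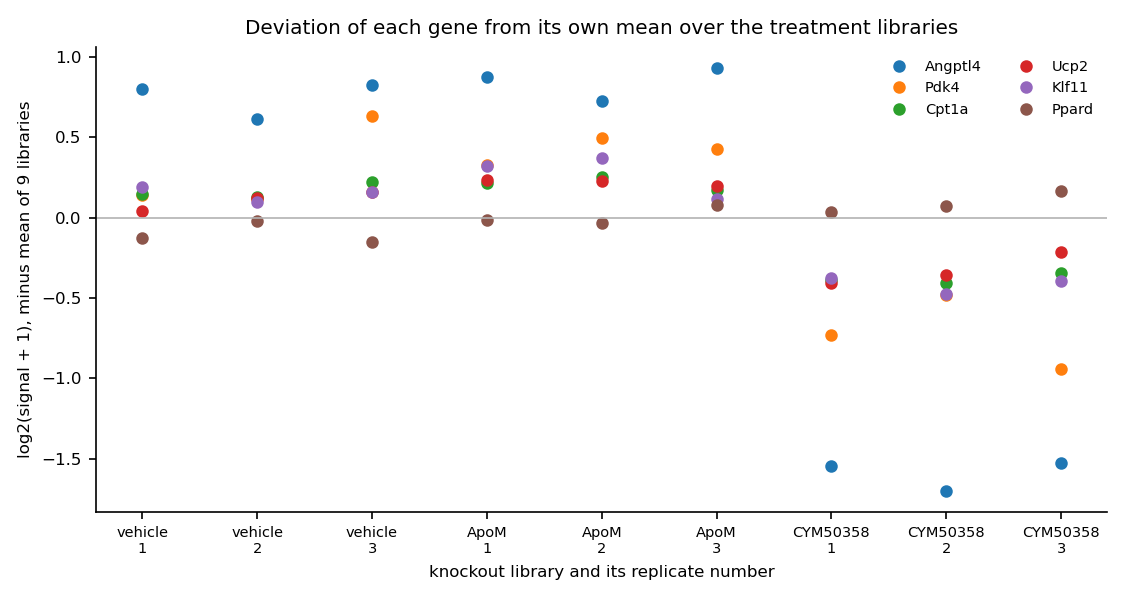
Log2(signal + 1) of the 5 lipid genes and Ppard in the 9 treatment libraries, each gene centred on its mean over those libraries, with 1 point per library. Angptl4 has the widest range, Pdk4 the next, and Ppard the narrowest.

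Most other genes of the PPAR pathway were not called in the treatment comparisons. The list holds 81 cofactors and targets from textbook knowledge, written with some results of these data known and without the 8 genes above, and 57 of them passed the filter. After CYM50358, 1 rose and 4 fell, where 1.34% of all genes rose and 1.25% fell, and the median log2 fold change of the 57 was -0.04.

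Slc25a20, the carrier that brings acylcarnitine into mitochondria after the Cpt1a step, had signals of 37.9, 37.8 and 35.2 with vehicle and 24.6, 27.9 and 30.1 after CYM50358 (log2 fold change -0.42, SE 0.09, adjusted p = 0.0232). Acot2, a mitochondrial acyl-CoA thioesterase, went from 24.3, 24.1 and 20.7 to 14.0, 15.7 and 17.5 (-0.52, SE 0.12, adjusted p = 0.021), and its near-identical neighbour Acot1 may share its reads. Acsl3, an acyl-CoA synthetase of the endoplasmic reticulum and lipid droplets, rose (0.54, SE 0.11, adjusted p = 0.0115). The groups did not overlap for Slc25a20 and Acot2. The count of 5 fell to 2, 1, 3 and 1 without vehicle replicate 1, vehicle replicate 2, CYM50358 replicate 1 and CYM50358 replicate 2. Acsl3 lost its call without CYM50358 replicate 2 (adjusted p = 0.0989), and Acot2 and Slc25a20 each lost theirs in 4 of the 6 fits, with adjusted p up to 0.0914 and 0.0918. With no filter on low values none of the 5 stayed below 0.05.

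No pathway gene was called for ApoM, with limma, edgeR or DESeq2. Of the 57, 9 had an unadjusted limma p under 0.05, against 5.46% of all genes tested. Between ApoM and CYM50358, 6 of 56 were higher after ApoM and 1 lower, where 1.22% of all genes were higher and 1.37% lower. Acot2 (0.64, adjusted p = 0.00242) and Slc25a20 (0.49, adjusted p = 0.00305) were higher after ApoM and Acsl3 lower (-0.77, adjusted p = 0.000115). With the replicate numbers as a block, which the libraries' deviations allow here, 11 were higher and 2 lower. The shares of all genes given here are from the fit without the block. The count of 7 was 4 without ApoM replicate 1 or without CYM50358 replicate 2.

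**Figure D4:**
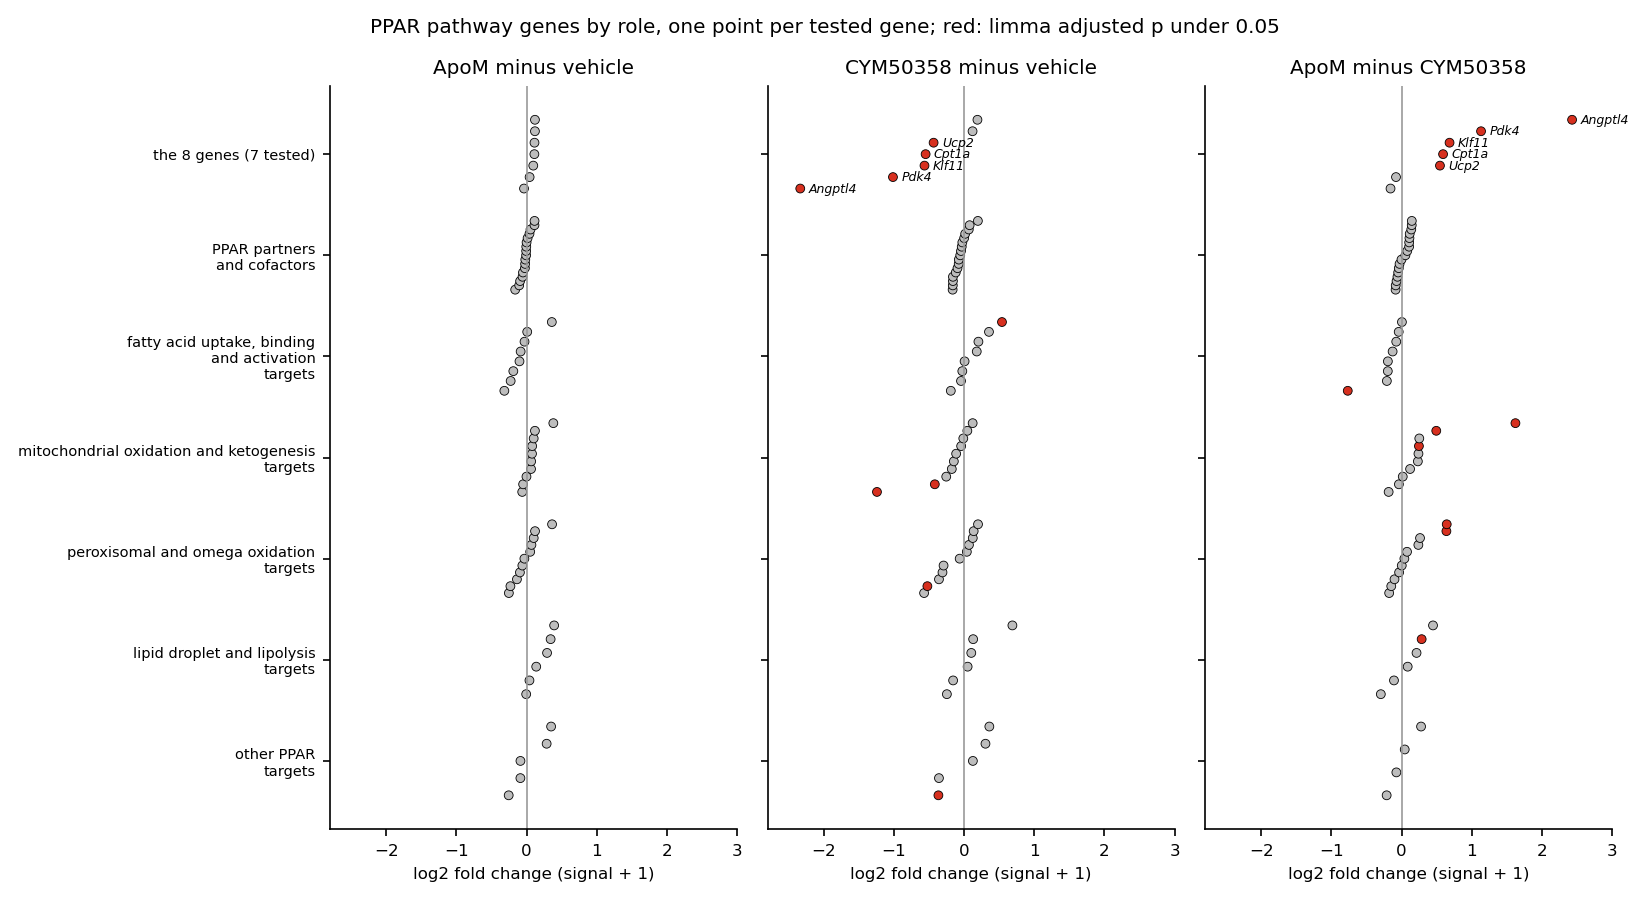
Log2 fold change of signal + 1 of each tested pathway gene in the 3 treatment comparisons, grouped by role, with 1 point per gene and genes at an adjusted p under 0.05 in red; names are given in the top row. Most genes lie near 0, while 5 of the 7 tested genes in the top row are in red for CYM50358 minus vehicle and for ApoM minus CYM50358.

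RXR partners, coactivators and corepressors were called in neither treatment: of 17 tested, limma, edgeR and DESeq2 called none after ApoM or CYM50358. Of the 17, 0 and 3 had an unadjusted limma p under 0.05, against 5.46% and 16.6% of all genes tested. Between the genotypes 10 of the 57 pathway genes rose and 18 fell, where 22.6% of all genes rose and 22% fell, so the calls are near the background. Their count of 28 was 18 without knockout replicate 3 of set 1. Among 11 genes listed for peroxisomal and omega oxidation 7 fell and 2 rose in knockout cells, against the same 22% and 22.6% of all genes. That list was written with results known and also takes in the mitochondrial Acot2, 1 of the 2 that rose. Acaa1a, a peroxisomal thiolase, fell from 51.1 ± 1.03 to 25.5 ± 0.443 (-0.97, SE 0.06, adjusted p = 2.04e-06). The omega hydroxylase Cyp4a12b fell from 42.6 ± 14.9 to 7.19 ± 1.15 (-2.36) and its near copy Cyp4a12a from 15.7 ± 3.70 to 4.41 ± 0.242 (-1.60); how reads were split between these copies is uncertain. Plin2, which coats lipid droplets, fell from 393.6 ± 27.8 to 282.4 ± 21.1 (-0.48, SE 0.08, adjusted p = 0.00089).

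The relatives and partners of the 5 lipid genes were then set beside them. None of the 10 tested paralogues was called after CYM50358 with limma or edgeR, with 2 at an unadjusted p under 0.05 and 1 call by DESeq2. Between the genotypes 5 of 10 paralogues rose and 2 fell, where 22.6% and 22% of all genes did. Pdk2, another pyruvate dehydrogenase kinase, fell from 64.7 ± 8.16 to 31.9 ± 1.21 (-0.99, SE 0.09, adjusted p = 2.82e-05), while Pdk1 rose from 19.0 ± 1.83 to 28.6 ± 2.01 (0.56, SE 0.09, adjusted p = 0.000888). Of 7 genes of the pyruvate dehydrogenase complex and its phosphatases none was called after CYM50358 by the 3 tools. One of the 7 (1 gene) had an unadjusted limma p under 0.05, against the same 16.6% of all genes.

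Of 11 Krüppel-like factors none was called after CYM50358 with limma or edgeR, with 3 at an unadjusted p under 0.05 and 2 calls by DESeq2. Between the genotypes 3 of 12 rose and 3 fell, and with the replicate numbers as a block 7 rose and 3 fell, where 44.7% of all genes were called without the block. Among them were Klf2, up from 1.39 ± 0.259 to 6.61 ± 0.982 (1.67, SE 0.13), and Klf12, down from 4.65 ± 0.520 to 0.888 ± 0.0712 (-1.58, SE 0.12). Angptl4 is also known to respond to hypoxia, and both Angptl4 and Pdk4 to glucocorticoids. After CYM50358, 2.59% of all genes tested were called. Of 11 hypoxia-inducible genes 1 was called, Ndrg1, which rose (0.36, SE 0.07, adjusted p = 0.00586, and 0.0671 without CYM50358 replicate 2). Of 9 glucocorticoid-inducible genes 1 was called, the metallothionein Mt2, which rose from 10.4 ± 1.78 to 26.0 ± 2.10 (1.26, SE 0.13, adjusted p = 2.13e-05). No gene of either list was called lower after CYM50358. An unadjusted limma p under 0.05 was found for 4 of the 11 and 6 of the 9, against 16.6% of all genes tested. The log2 fold changes of the 9 glucocorticoid-inducible genes had a median of -0.11 and ran from -0.50 to 1.26. Whether either response had a part in the falls of Angptl4 and Pdk4 was not tested. Between ApoM and CYM50358, 3 of the 11 hypoxia-inducible genes were called, all lower after ApoM, where 1.22% of all genes were higher and 1.37% lower. They were Ndrg1 (-0.23), P4ha2 (-0.32) and Slc2a1 (-0.31), each lost without at least 1 of the libraries (adjusted p up to 0.121, 0.145 and 0.194). Between the genotypes 5 of the 11 rose and 1 fell, where 22.6% of all genes rose and 22% fell.

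The genes most like the 5 lipid genes over the 9 treatment libraries were found by the root mean square difference of centred log2(signal + 1) among 7127 genes. Cpt1a was nearest to Psat1 (0.0564), Ucp2 (0.0640) and Klf11 (0.0679). Ucp2 was nearest to Aldh1a1 (0.0484), Cpt1a (0.0640) and Slc25a20 (0.0695), and Klf11 to Cpt1a (0.0679), Psat1 (0.0766) and Ucp2 (0.106). Pdk4 was nearest to Kank3 (0.245), Apol7d (0.273) and Psat1 (0.286). For Angptl4 the nearest was Pdk4 at 0.651, then Apol7d at 0.759 and Aldh1l2 at 0.803, so no gene followed its range closely. Each measure covers the same 9 libraries and is a description. The 5 genes were chosen with results of these libraries known, so nothing is read from their nearness to each other.

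Kank3 lies 28689 bases from Angptl4 on chromosome 17, with no protein-coding gene between them, a proximity looked up after its values were seen. It fell after CYM50358 from 41.4 ± 5.55 to 27.5 ± 3.80 (log2 fold change -0.57, SE 0.11, adjusted p = 0.00872). It was higher after ApoM than after CYM50358 (0.82, SE 0.10, adjusted p = 1.87e-05). Between the genotypes it rose (0.93, SE 0.10, adjusted p = 7.45e-05), where Angptl4 did not pass the test.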

How the data were processed

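Per the labels' protocols, mRNA-Seq libraries were made from total RNA of 15 podocyte samples. The submitters' processing notes name FastQC, Trim Galore, STAR, edgeR and mm39. Versions, roles and strand use are not given in the sources used. The authors deposited signal per library without a stated unit, and per the file headers also log2 fold changes with standard errors, a test statistic (a score), p-values and adjusted p-values. Their columns carry the names DESeq2 uses. Dividing each value by the library's smallest step gave whole reads (tolerance 0.01).

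The main test was limma 3.58.1 (R 4.3.3) with a trend on log2(signal + 1), two-sided, on the 2 groups compared, for genes that reached a signal of 0.5 in 3 or more libraries of the fit, with Benjamini-Hochberg adjustment over all genes tested and calls at an adjusted p under 0.05. The counts, recovered reads rather than deposited counts, went into edgeR 4.0.16 and DESeq2 1.42.0 as alternatives. The genotype table and the treatment tables may have been normalized separately, which the sources used do not say, so tests stayed within each. ApoM and CYM50358 share the vehicle libraries, so their comparisons with vehicle are not independent. Exon lengths come from GENCODE M21 (GRCm38). Whether overlapping genes share reads is unknown; Dnajb13, which overlaps Ucp2, averaged 0.0341.

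The 8 genes and all lists were chosen with earlier results of these data known. Named genes were the 8, up to 4 called genes with the smallest p per list and comparison, and the 3 genes nearest in profile to each gene called in a treatment comparison. Some genes that this rule takes are counted but not reported by name. Replicate numbers come from sample titles: same-numbered libraries had correlated deviations between the genotypes (0.371, 0.217 and 0.105) and between ApoM and CYM50358 (0.132, 0.115 and 0.132), so the numbers were taken as pairs there, but the replicate number enters only an alternative fit and the values printed are from the fit without it. The scripts were tested on simulated data.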

Additional observations from a re-analysis of the deposited data

How the results depend on the processing

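The calls and non-calls of the 7 genes tested were the same with a pseudocount of 0.1, edgeR, TMM scaling, all 9 treatment libraries in 1 fit and the replicate block, and no call reversed. With a stricter filter and DESeq2 this holds without Pparg, which the stricter filter removes and for which DESeq2 gave no adjusted p in the treatment comparisons. Leaving out 1 library gave 3 to 4 calls among them for knockout minus wild type and, in every such fit, 5 for CYM50358, 5 between the treatments and 0 for ApoM. Without a filter on low values the calls were 1 for CYM50358 and 2 between the treatments, and the pathway list had 0 and 0; many more genes were then tested. Pathway calls numbered 8 for CYM50358 with all treatment libraries in 1 fit. With 1 library left out they ran from 18 to 36 between the genotypes (28 with all), 1 to 5 for CYM50358 (5) and 4 to 10 between the treatments (7), and with the replicate block they were 13 there. Vehicle and treated libraries share only a number (correlations -0.161 to 0.135), and the replicate block there gave 5 calls among the 8 genes and 7 in the pathway list for CYM50358, and 0 and 0 for ApoM. The block changed no other call of the 8 genes. Depth limits Ppara and Pparg, whose libraries hold 0 to 32 and 13 to 103 reads.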
